A study of Mus musculus with 12 samples.

Results

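The histone genes are the genes of the proteins around which nuclear DNA is wound, and their RNA abundance was followed here across 4 treatments of mouse prostate organoids. Members were the genes of the deposited table whose symbols begin with the stems of the current mouse histone nomenclature (H1f, H2ac, H2bc, H2az, H2ax, H3c, H3f, H4c and Macroh2a; the older stems Hist and H2af were also searched), leaving out 3 names marked as pseudogenes by the suffix -ps. This gave 74 genes of the 24674 in the table. Of these, 61 were clustered genes, that is, H2A, H2B, H3 and H4 genes with a cluster number together with H1f1 to H1f6, and the other 13 were variant genes, of which 10 are annotated as protein coding.

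Organoids, small 3-dimensional epithelial cultures, were grown from basal cells of the prostate of wild-type C57BL/6 mice, and every sample shared this origin. The 4 groups of 3 samples were given vehicle, UK5099, butyrate, or UK5099 with butyrate, called the combination here. UK5099 blocks the carrier through which pyruvate enters mitochondria, and butyrate blocks histone deacetylases, the enzymes that remove acetyl groups from histone tails. The labels give no dose or time of treatment, and nothing in them ties a replicate number to a separate animal or culture, so p-values measure only the spread between these samples.

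Most core histones, and most of the linker histone H1, are made from clustered, intronless genes that are read mainly during S phase, when new DNA must be packed. Their mRNAs usually end in a conserved stem-loop bound by SLBP in place of a poly(A) tail, and NPAT is the factor that brings their transcription to the histone locus bodies. Variant histones such as H1.0, H2A.X, H2A.Z, H3.3 and macroH2A are encoded by single genes outside the clusters, are mostly polyadenylated and are made throughout the cell cycle.

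Depth was between 33251529 and 43498475 fragments per sample, recovered from the steps of the deposited TPM. Comparing replicates over 16476 to 17513 genes a pair, UK5099 replicate 1 and combination replicate 1 stood apart from the other replicates of their groups, with a chi-square per gene between 6.31 and 6.66 against 1.93 to 2.65 for every other pair, and results that change without them are named. The basal keratins Krt5 and Krt14 were between 1370 and 5240 TPM in every sample, and Ptprc, Pecam1, Cdh5 and Kdr, which define leukocytes and endothelium, were at or under 0.0339 TPM. The luminal keratins Krt8 and Krt18 summed to 2334 to 2417 TPM in vehicle, 1096 to 1127 TPM with UK5099, 881 to 899 TPM with butyrate and 472 to 486 TPM with the combination, so luminal keratin RNA moved with the groups, and its part in the results was not tested. The 3 basal markers summed to between 3507 and 10240 TPM, lowest in vehicle, the 5 fibroblast markers to between 2.13 and 10.9 TPM, highest with butyrate through Dcn, and the 3 endothelial markers to at most 0.0415 TPM. Of 5 leukocyte markers 2 were in the table, and their sum, nearly all of it Cd68, lay between 23.8 and 24.8 TPM in vehicle, 29.7 and 30.9 TPM with UK5099, 66.2 and 68.6 TPM with butyrate and 86.4 and 97.1 TPM with the combination, and its part was likewise not tested. In such bulk samples, fewer cells of a type and less RNA per cell cannot be told apart.

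Differences are given as coefficients of a limma fit, that is, as differences of mean log2(TPM + 1), and a gene is said to have risen or fallen where the adjusted p-value was under 0.01 over all 24674 genes. A gene passed both limits where the coefficient was also over 1 in size. The median coefficient of the 13345 genes averaging 1 TPM or more was -0.12 with UK5099, -0.30 with butyrate and, with both, -0.41, and was 0.00, -0.03 and -0.03 after the samples were scaled by the median of ratios. A coefficient near these values is therefore no departure from the typical gene, and both scales are given where they part.

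The clustered genes were scarce in these libraries and the variants abundant. The median clustered gene had a mean of 2.25 TPM and 16.5 fragments per sample, 37 of the 61 had fewer than 20 fragments, and 7 reached 10 TPM. The 10 protein-coding variants had a median of 108 TPM. Near-identical clustered genes share reads: of their values under 1000 fragments, 12.9% were whole numbers of fragments against 75.7% for all protein-coding genes, and 33 clustered genes had no whole value, so a fragment count of a single clustered gene is in most cases an estimated share. H1f5, with 12 of 12 whole values, and H2bc21, with 10 of 12, were exceptions.

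The deposited TPM divides by the genomic span of a gene, introns included, so levels of different genes are compared on TPM recomputed with exonic length. On that scale the order in vehicle was led by H3f3b, a gene of histone H3.3, at 980.3 ± 3.72 (SD, n = 3), followed by H1f0, the gene of the linker histone H1.0, at 501 ± 4.13. The clustered gene H2ac24 came next at 403 ± 7.06, ahead of H2az1 at 308 ± 6.73 and H3f3a, the other H3.3 gene, at 282 ± 3.08. H2ax followed at 136 ± 4.55 and H3f3c, annotated as a processed pseudogene, at 109.9 ± 6.50. Macroh2a1 at 76.9 ± 1.15, H2az2 at 74.0 ± 1.73 and the clustered linker gene H1f2 at 71.4 ± 1.69 lay close together, and the first of these differed from the next by less than the sum of their SDs. H2bc4 was at 60.5 ± 0.999, H1f10 at 59.3 ± 1.90 and Macroh2a2 at 36.5 ± 0.755. The remaining clustered genes lay lower, led by H4c9 at 12 ± 1.12.

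The clustered genes differ in how their annotated transcripts end. The labels describe depletion of ribosomal RNA and then enrichment of mRNA without naming the poly(A) tail, and the part of that step in the levels was not tested. A search of GENCODE transcripts (GRCm38) for the histone stem-loop consensus on the transcript strand found a match in 43 of the 61 clustered genes, in 1 variant gene, H2ax, and in 0.62% of 21901 protein-coding genes. The bases left between the stem-loop and the annotated end had a median of 57, with 23 genes under 100 and 16 genes at 300 or more. The stem-loops of genes described below are printed from 5′ to 3′ with up to 5 bases on each side and the stem-loop in capitals, since the letters are nearly the same while the length that follows them is not.
H2ac24: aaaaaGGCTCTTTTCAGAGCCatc
H2bc12: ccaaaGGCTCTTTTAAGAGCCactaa
H3c3: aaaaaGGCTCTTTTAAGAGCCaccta
H4c9: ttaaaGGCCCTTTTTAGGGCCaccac
H3c4: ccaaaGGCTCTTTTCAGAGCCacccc
H2ac6: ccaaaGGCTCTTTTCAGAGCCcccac
H2ax: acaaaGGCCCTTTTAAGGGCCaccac
The annotated transcript went on after the stem-loop for 3 bases in H2ac24, 30 in H2bc12, 74 in H3c3, 330 in H4c9, 752 in H3c4, 2010 in H2ac6 and 822 in H2ax. No match was found in the annotated transcripts of H2bc4, H2bc24 and H1f5. Several other clustered genes without a match had only short annotated transcripts, such as 312 bases in H4c12, 381 in H2bc13 and 393 in H2ac13. Whether such annotations reach the end of the mRNA was not tested, so a missing match need not mean a missing stem-loop. The commonest form, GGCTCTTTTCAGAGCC, stood in 24 clustered genes.

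Butyrate raised a small number of clustered genes and lowered others, while the variants fell or stayed near vehicle on the deposited scale. Of all 24674 genes, 9.70% rose and 35.9% fell. Of the 61 clustered genes, 6 rose (9.84%) and 4 fell (6.56%), with a median coefficient of 0.03 against -0.07 over all genes. On the median-of-ratios scale, 10 clustered genes rose and 1 fell, against 18.5% and 20.3% of all genes. Of all genes, 1.13% were higher and 2.42% lower past both limits, against 3 and 1 clustered genes.

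H3c4 (ENSMUSG00000099583; chromosome 13, 23759937 to 23761186, as the table gives positions, for which the labels name GRCm39), a clustered gene of histone H3, had the highest butyrate coefficient among the members on the deposited scale, though the ratio of mean TPM was higher for H2bc24, at 6.05. Its levels were 1.58, 1.33 and 1.44 TPM in vehicle, 1.44, 2.42 and 2.36 TPM with UK5099, 6.82, 6.55 and 8.17 TPM with butyrate and 9.11, 6.84 and 8.95 TPM with the combination. All samples with butyrate, alone or with UK5099, lay above all samples without it. The butyrate coefficient was 1.74 ± 0.15 (SE) with an adjusted p of 4.53e-06, a 4.95-fold higher mean TPM.
H2bc24 (ENSMUSG00000069303; chromosome 13, 22017913 to 22021701), a clustered H2B gene, was at 0.25, 0.754 and 1.04 TPM in vehicle, 1.1, 1.03 and 0.441 TPM with UK5099, 5.15, 3.59 and 3.64 TPM with butyrate and 5.88, 2.35 and 3.92 TPM with the combination. The groups with and without butyrate did not overlap, though the 3 combination samples spread over more than a 2-fold range. The butyrate coefficient was 1.62 ± 0.29 (SE), with an adjusted p of 0.000825 in limma.
H2bc4 (ENSMUSG00000018102; chromosome 13, 23868182 to 23876892), the most abundant clustered H2B gene, was at 14.1, 14.3 and 14.4 TPM in vehicle, 12.6, 13.6 and 14.2 TPM with UK5099, 31.4, 30.4 and 31.8 TPM with butyrate and 34.2, 28.2 and 29.6 TPM with the combination. Replicates agreed closely in vehicle and butyrate, and the butyrate coefficient was 1.08 ± 0.06 (SE; adjusted p = 3.66e-07, limma).
H2ac6 (ENSMUSG00000069270; chromosome 13, 23865450 to 23867932), an H2A gene, was at 2.94, 3.22 and 3.71 TPM in vehicle, 2.85, 2.45 and 2.50 TPM with UK5099, 8.76, 7.48 and 6.44 TPM with butyrate and 9.75, 8.63 and 8.67 TPM with the combination. Its butyrate coefficient of 0.99 ± 0.10 (SE; adjusted p = 2.01e-05, limma) lay just under the limit of 1.
H4c9, an H4 gene, rose from 19.2, 22.9 and 21.8 TPM in vehicle to 32.2, 39.7 and 33.4 TPM with butyrate, and its call ended without butyrate replicate 2 or vehicle replicate 1 (adjusted p up to 0.0112, limma).
H2bc6, which was named after its values were seen, also rose from 0.0978 ± 0.00790 to 0.173 ± 0.0261 TPM (SD, n = 3). It has a span of 37455 bp that overlaps H1f4 in part on the same strand, so reads from the overlap cannot be told apart.

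**Figure D1:**
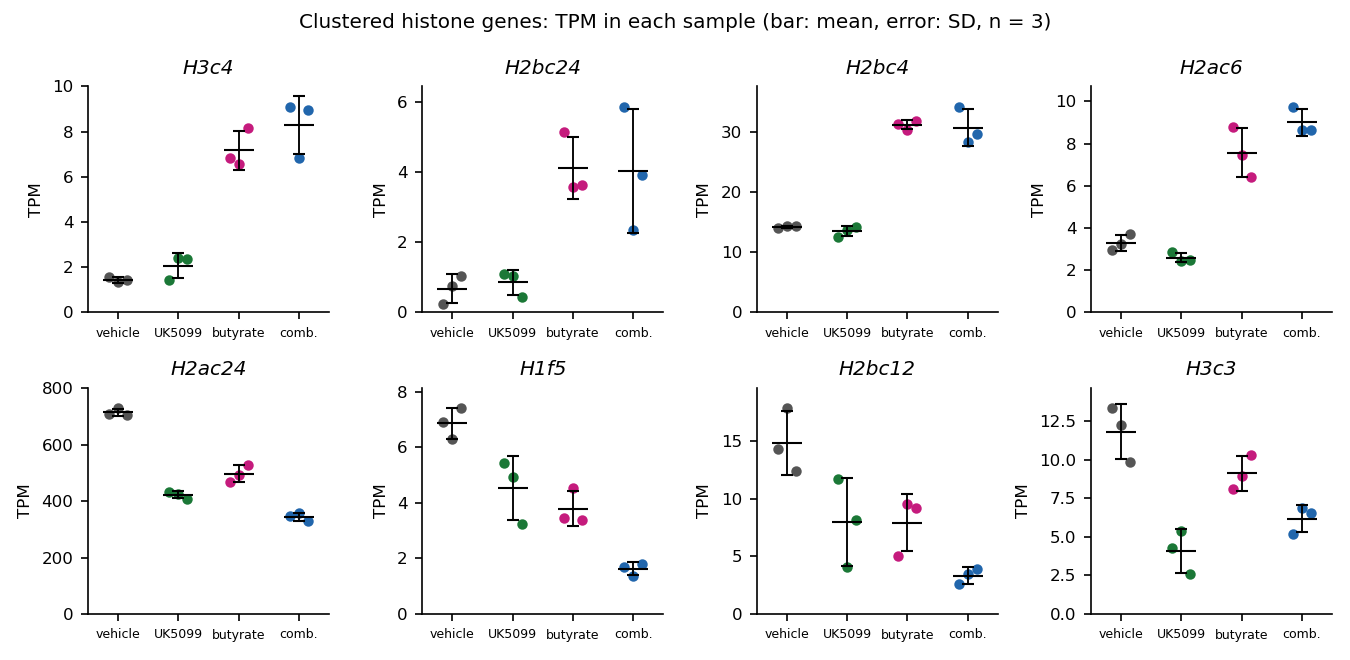
TPM (y axis, from 0) of 8 clustered histone genes in each of the 3 samples of the vehicle, UK5099, butyrate and combination (comb.) groups, with the group mean and SD. H3c4, H2bc24, H2bc4 and H2ac6 are higher in all 6 samples with butyrate than in all 6 without it, whereas H2ac24, H1f5, H2bc12 and H3c3 are lower in each treated group's mean than in vehicle.

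Among the clustered genes that fell with butyrate, H2ac24 (ENSMUSG00000094777; chromosome 13, 22017196 to 22017678), an H2A gene, carried the most TPM. It was at 710.4, 730.5 and 705 TPM in vehicle, 434, 426 and 409 TPM with UK5099, 469, 492 and 529 TPM with butyrate and 347, 357 and 330.1 TPM with the combination. The 4 groups did not overlap. Its butyrate coefficient was -0.53 ± 0.05 (SE; adjusted p = 4.96e-06, limma), or -0.21 on the median-of-ratios scale.
H1f5, an S-phase linker histone gene whose fragments were whole in every sample, was at 6.91, 6.29 and 7.42 TPM in vehicle and 3.46, 4.53 and 3.38 TPM with butyrate. The groups did not overlap, and the coefficient of -0.72 ± 0.16 (SE; adjusted p = 0.00305, limma) lost its call without butyrate replicate 1 or 3 or vehicle replicate 1 or 3 (adjusted p up to 0.0139).
H2ac20 and H2ac4, both H2A genes of few fragments, fell by 1.37 and 0.95 on the log2(TPM + 1) scale, with adjusted p-values of 0.00713 and 0.00611 in limma. Both calls ended in 7 of the 12 fits that left out 1 sample, including those without UK5099 replicate 1 or any one of the butyrate replicates, without any one of the vehicle replicates for H2ac20, and without vehicle replicate 2 or 3 or combination replicate 2 for H2ac4, with adjusted p-values up to 0.0290 and 0.0258.
H1f2, which encodes the linker histone H1.2 and has the second highest deposited TPM among clustered genes, was at 128, 129 and 123 TPM in vehicle and 146, 137 and 139 TPM with butyrate. The groups did not overlap, but the coefficient of 0.15 ± 0.05 (SE) missed the limit (adjusted p = 0.0389, limma), while on the median-of-ratios scale it was 0.46 and passed.

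By family of clustered genes, 3 of 16 H2B genes, 1 of 15 H2A, 1 of 12 H3 and 1 of 12 H4 rose with butyrate. Those that fell were 3 of 15 H2A genes and 1 of 6 H1 genes. Over all genes, 9.70% rose and 35.9% fell. The median coefficients of the families were 0.04 for H2B, -0.28 for H2A, -0.15 for H3, 0.18 for H4 and -0.18 for H1. On the median-of-ratios scale 5 H2B and 2 H4 genes rose, with H2bc8, H2bc21 and H4c17 joining those above, against 18.5% of all genes. H4c17 was close to the limit on the deposited scale (8.05, 4.31 and 4.09 TPM in vehicle and 11.2, 9.18 and 13.1 TPM with butyrate; adjusted p = 0.0101, limma), and its groups did not overlap.

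**Figure D2:**
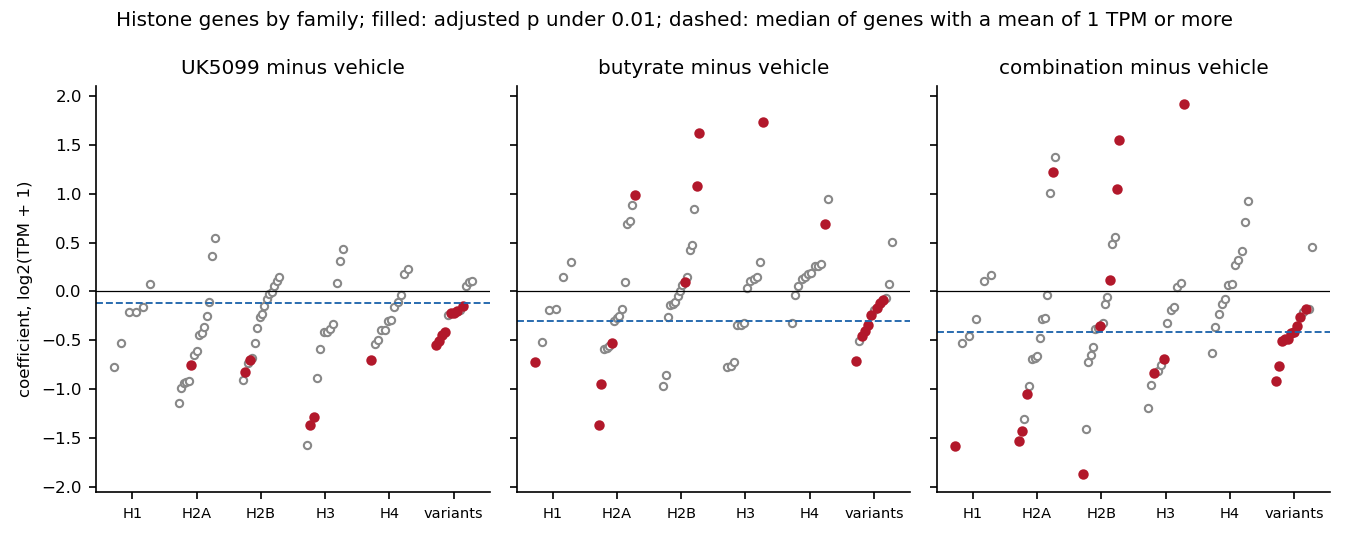
Coefficients (y axis, difference of mean log2(TPM + 1) from vehicle) of all 74 histone genes, by family and for the 3 treatments; filled points have an adjusted p under 0.01 and the dashed line is the median of genes averaging 1 TPM or more. Calls among clustered genes fall on both sides of 0 with butyrate and the combination, and all filled variant points lie below 0.

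Clustered H2A and H2B genes are often arranged head to head with a shared promoter, and 11 such pairs, with starts at most 500 bp apart, were found in the table. With butyrate, both genes of 1 pair rose, H2ac6 and H2bc4, which lie 250 bp apart. In 1 other pair, H2ac24 and H2bc24, 235 bp apart, the H2A gene fell and the H2B gene rose. In the pair H2ac20 and H2bc21 the H2A gene fell and H2bc21 had a coefficient of 0.15 ± 0.09 (SE; adjusted p = 0.205, limma). In the other 8 pairs no gene passed the limit.
The RefSeq promoter windows of H2ac6 (GRCm38.p6, chr13:23683910-23684209, minus strand) and H2ac24 (chr13:21833426-21833725, minus strand), which reach from 250 bases before the start to 50 after it, are printed to show the letters in and around the gap between the genes of these 2 pairs. Capitals mark the octamer ATTTGCAT, TATAAA and CCAAT on either strand, and the matches do not overlap.
H2ac6: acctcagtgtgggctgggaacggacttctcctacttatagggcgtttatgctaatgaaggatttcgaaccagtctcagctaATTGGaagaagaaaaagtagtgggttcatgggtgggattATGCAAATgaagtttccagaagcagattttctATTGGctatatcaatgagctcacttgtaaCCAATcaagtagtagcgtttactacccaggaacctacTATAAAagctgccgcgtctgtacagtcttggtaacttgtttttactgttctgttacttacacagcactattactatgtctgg
H2ac24: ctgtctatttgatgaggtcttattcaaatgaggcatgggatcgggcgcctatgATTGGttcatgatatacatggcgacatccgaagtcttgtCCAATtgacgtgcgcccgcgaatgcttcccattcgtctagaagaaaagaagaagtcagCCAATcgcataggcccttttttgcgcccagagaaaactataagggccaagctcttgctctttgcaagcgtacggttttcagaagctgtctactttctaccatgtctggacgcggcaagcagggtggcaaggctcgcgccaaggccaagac
The window of H2ac6 held all 3 motifs and that of H2ac24 held CCAAT alone. Of the 74 members, 65 had a RefSeq promoter. The octamer, a motif known from H2B promoters, stood in 20% of 55 clustered promoters against 2.0% of 27025 genes, and in 6 of 13 H2B and 5 of 15 H2A promoters. TATAAA stood in 56.4% of clustered promoters against 15.7% of all genes and CCAAT in 85.5% against 41.1%. A match is a description of letters and not a measured site.

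Of the 6 clustered genes that rose with butyrate, 5 had an exonic length of at least 1000 bp, 6 one of at least 700 bp and 3 one of at least 1500 bp. Clustered genes were divided at 1000 bp, a limit chosen after the values were seen, so the split is a description with no test. Of 16 genes at or above it, 5 rose (H2bc4, H2ac6, H3c4, H2bc24 and H2bc6) and 0 fell in limma, with a median coefficient of 0.15, and at an unadjusted p under 0.05 there were 2 lower, while voom on recovered fragments called 0 lower. Of 45 shorter genes, 1 rose (H4c9) and 4 fell (H2ac24, H2ac4, H1f5 and H2ac20), with a median of -0.11. Of all genes, 9.70% rose and 35.9% fell. These calls are on the deposited scale. On the median-of-ratios scale H2bc8 and H4c17, of 618 and 402 bp, rose as well, as did the longer H2bc21 and H1f2. Only 1 clustered gene fell on that scale, so the contrast by length parted with the scale. The longer genes also held more fragments, with a median of 50.4 against 12.8 per sample, so they had more chance to pass a test, and the part of this in the split was not tested. Summed FPM (fragments per 1000000 recovered fragments) of the longer genes were 76.6, 76.8 and 76.3 in vehicle, 79.9, 77.9 and 77.4 with UK5099, 146, 141 and 145 with butyrate and 163, 139.7 and 142 with the combination. Those of the shorter genes were 86.4, 93.0 and 89.6, 61.4, 57.2 and 54.5, 83.3, 86.0 and 89.7 and 66.5, 65.3 and 64.0 in the same order. The longer genes thus held 188% of their vehicle fragments with butyrate, with no overlap, and the shorter ones 96.3%, with overlap. H2ac24, a shorter gene, made up most of the shorter genes' fragments. All 61 clustered genes held 166 FPM in vehicle and 230 with butyrate, and 99.4 and 172 without it. In deposited TPM the longer genes summed to 125% of vehicle with butyrate and the shorter ones to 76.0%, both with no overlap. The sum of the shorter genes was thus lower on that scale in every butyrate sample. On average H2ac24 held 715 of the shorter genes' 929 TPM in vehicle and 497 of their 707 TPM with butyrate. The sums of the shorter genes therefore describe H2ac24 more than the other genes of that group. Among the longer genes, H2bc4 alone had a mean of 884 fragments in vehicle and 2416 with butyrate, and H1f2 had 1405 and 1954. The sums of the longer genes therefore describe H2bc4 and H1f2 more than the other genes of that group.

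**Figure D3:**
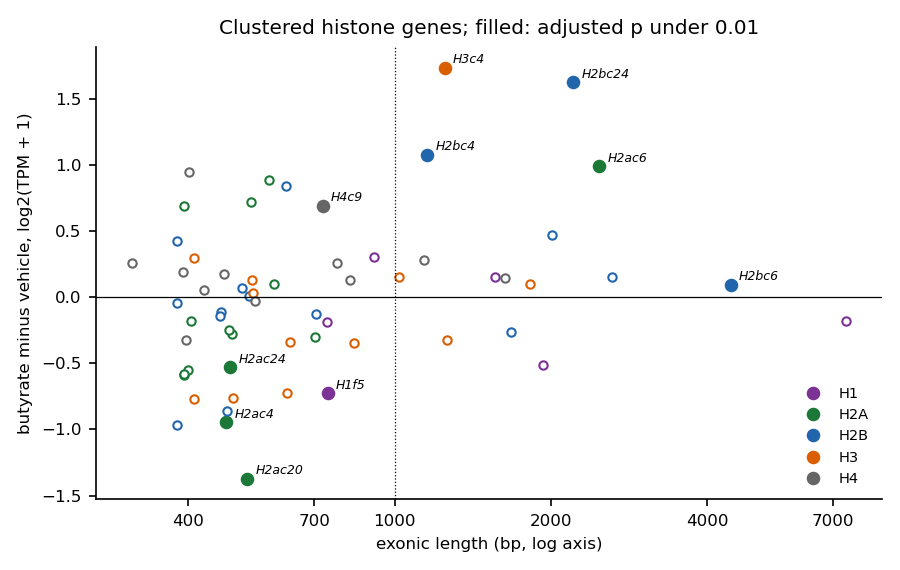
Butyrate coefficient (y axis, log2(TPM + 1)) against exonic length in bp (x axis, log scale) of the 61 clustered genes, coloured by family; filled and labelled points have an adjusted p under 0.01 and the dotted line stands at 1000 bp. The 5 filled points to the right of the line are all above 0, and 4 of the 5 to its left are below 0. On the median-of-ratios scale, not drawn here, H2bc8 and H4c17 to the left also rose and fewer clustered genes fell.

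With UK5099 alone 0 of 74 histone genes rose in limma on the deposited scale and 14 fell (18.9%), against 8.24% and 24.7% of all genes. At an unadjusted p under 0.05 there were 2 higher, and voom on recovered fragments called 2 higher. Of the 14, 6 were clustered genes (9.84% of 61), and the median coefficient of clustered genes was -0.39 against -0.03 over all genes and -0.12 over genes averaging 1 TPM or more. Past both limits were 2 clustered H3 genes, both lower, against 0.912% of all genes.
H3c3 (chromosome 13, 23928956 to 23929586) was at 13.4, 12.3 and 9.89 TPM in vehicle and 4.27, 5.38 and 2.60 TPM with UK5099, and at 8.09, 8.97 and 10.3 TPM with butyrate. UK5099 and vehicle did not overlap, and the coefficient was -1.37 ± 0.20 (SE; adjusted p = 0.000445, limma).
H3c1 (chromosome 13, 23945836 to 23946370) was at 4.18, 5.81 and 8.03 TPM in vehicle and 1.49, 0.841 and 3.79 TPM with UK5099. Its coefficient of -1.29 ± 0.32 (SE; adjusted p = 0.00948, limma) rested on a mean of 19.5 fragments per sample, and the call ended in every fit with 1 sample left out except those without UK5099 replicate 3 or vehicle replicate 1 (adjusted p up to 0.0372).
H2ac24 fell by 0.76 on the log2(TPM + 1) scale (SE 0.0453; adjusted p = 1.04e-06, limma).
H2bc11, an H2B gene, was at 10.8, 15.2 and 17.7 TPM in vehicle and 7.63, 6.42 and 9.01 TPM with UK5099, with no overlap. Its adjusted p of 0.00509 in limma was lost without UK5099 replicate 1 or 2 or vehicle replicate 2 or 3 (up to 0.0216).
H4c9, which rose with butyrate, was at 12.6, 10.3 and 15.6 TPM with UK5099 against 19.2, 22.9 and 21.8 TPM in vehicle, with a coefficient of -0.70 ± 0.14 (SE; adjusted p = 0.00307, limma), and this call ended without UK5099 replicate 1 or vehicle replicate 2 or 3 (adjusted p up to 0.0139). H2bc21, named after its values were seen, was at 7.38, 6.37 and 7.0 TPM in vehicle and 4.27, 4.28 and 3.14 TPM with UK5099.
On the median-of-ratios scale, 3 of these 6 genes, H3c3, H2ac24 and H2bc21, still fell, and H1f2 rose with a coefficient of 0.22, against 0.08 on the deposited scale. H2ac18, a clustered H2A gene, was at 14.8, 18.9 and 19.5 TPM in vehicle. With UK5099 it was at 22.1, 26.5 and 20.9 TPM, higher without overlap. H1f4 was at 9.26, 8.80 and 8.53 TPM in vehicle and 8.33, 7.06 and 7.25 TPM with UK5099, lower without overlap. H4c18 was at 2.98, 9.60 and 5.78 TPM in vehicle and 3.09, 5.09 and 3.10 TPM with UK5099, with overlap. H2ac18, H1f4 and H4c18 had no call on the deposited scale.

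On the deposited scale more histone genes changed with the combination than with either drug, though on the median-of-ratios scale 18 changed with the combination and 18 with butyrate. Of the 74, 5 rose (6.76%) and 18 fell (24.3%), against 10.1% and 40.8% of all genes. The 5 that rose were clustered genes that also rose with butyrate (H3c4, H2bc24, H2ac6, H2bc4 and H2bc6), but both comparisons share the vehicle samples. Of the 18 that fell, 8 were clustered and 10 were variants. Past both limits were 4 higher and 5 lower genes, all clustered, against 1.79% and 4.63% of all genes.
H3c4 had a coefficient of 1.92 ± 0.15 (SE; adjusted p = 1.61e-06, limma), H2bc24 of 1.55, H2ac6 of 1.23 and H2bc4 of 1.05.
H2bc12 (chromosome 13, 22220040 to 22220516), an H2B gene, was at 14.3, 17.9 and 12.4 TPM in vehicle, 11.7, 4.07 and 8.17 TPM with UK5099, 5.06, 9.51 and 9.18 TPM with butyrate and 2.57, 3.49 and 3.94 TPM with the combination. The combination lay below all other samples, and its coefficient was -1.87 ± 0.34 (SE; adjusted p = 0.000854, limma).
H1f5 was at 1.71, 1.35 and 1.80 TPM with the combination, below all samples of the other groups, with a coefficient of -1.59 ± 0.16 (SE; adjusted p = 1.04e-05, limma). It kept its call under all 23 alternative settings.
H2ac24 fell by 1.05 on the log2(TPM + 1) scale (SE 0.0453; adjusted p = 2.37e-08, limma). H2ac11 was at 2.20, 6.17 and 1.54 TPM against 10.1, 9.56 and 11 TPM in vehicle, and H2ac20 at 0.573, 0.417 and 2.42 TPM against 3.49, 4.22 and 5.36 TPM. Both were lower in every combination sample than in every vehicle sample. The call of H2ac11 ended without combination replicate 1 or 3 or vehicle replicate 1 or 3 (adjusted p up to 0.0143, limma) and that of H2ac20 without combination replicate 1 or 2 or vehicle replicate 2 or 3 (up to 0.0221). H3c3, at 5.17, 6.87 and 6.54 TPM, also fell, but not without any one of the combination replicates or without vehicle replicate 1 or 2 (adjusted p up to 0.0243, limma).
On the median-of-ratios scale 10 of 61 clustered genes rose with the combination and 3 fell, namely H2bc12, H1f5 and H2ac24, against 21.7% and 22.5% of all genes.

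Each drug was also compared in the presence of the other. Adding butyrate to UK5099 raised 10 clustered genes and lowered 3, against 7.62% and 35.3% of all genes. H3c4 had a coefficient of 1.61 ± 0.15 (SE; adjusted p = 9.2e-06, limma) in this comparison, H2ac6 of 1.48 ± 0.10 (adjusted p = 1.36e-06) and H4c9 of 1.12 ± 0.14 (adjusted p = 0.000101).
Adding UK5099 to butyrate raised 0 clustered genes in limma, 1 at an unadjusted p under 0.05 and 0 in voom, and lowered 5, against 5.52% and 22.0% of all genes. Among the 5, H1f5 had a coefficient of -0.87 ± 0.16 (SE; adjusted p = 0.00186, limma) and H2ac24 of -0.53 ± 0.05 (adjusted p = 2.03e-05).
Between the single drugs, 14 clustered genes were higher with butyrate than with UK5099 and 0 lower, also at an unadjusted p under 0.05 and in voom, against 9.97% and 27.5% of all genes. H4c9 differed by 1.40 ± 0.14 (SE; adjusted p = 2.91e-05, limma) and H3c3 by 1.03 ± 0.20 (adjusted p = 0.00228).

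The summed level of the clustered genes depended on 1 gene and on the scale. In deposited TPM the 61 genes summed to 1080.1, 1140.3 and 1086 in vehicle, 771, 725 and 711 with UK5099, 905, 907 and 957 with butyrate and 743, 708 and 703 with the combination, which is 66.8%, 83.7% and 65.2% of vehicle for the treated groups. H2ac24 made up most of this sum. Without it the sums were 387 ± 20.6 TPM in vehicle, 313 ± 21.2 for UK5099, 426 ± 10.2 for butyrate, and combination samples gave 374 ± 22.5 (SD, n = 3). The butyrate sum was then 110.1% of vehicle, with no overlap of the samples, and the combination sum overlapped vehicle. In FPM, which gives longer transcripts more weight, all 61 genes held 163, 169.8 and 166 in vehicle, 141, 135 and 132 with UK5099, 229, 227 and 235 with butyrate and 229, 205 and 206 with the combination. On this measure butyrate and the combination were above vehicle in every sample, and UK5099 below it.
The families moved unequally. H2B FPM were 35.6 ± 1.17 in vehicle, 32.1 ± 0.443 for UK5099, 84.9 ± 1.72 for butyrate, and combination samples gave 84.4 ± 8.64 (SD, n = 3). H2A FPM were 74.3 ± 1.66, 48.2 ± 2.55, 68.7 ± 2.52 and 53.2 ± 2.18 in the same order. H3 FPM were 5.43 ± 0.333 in vehicle and 3.42 ± 0.551 with UK5099, without overlap. In deposited TPM the H2B sum was 125% of vehicle with butyrate, with no overlap. With the combination it was 99.9% and overlapped vehicle. The higher H2B sum of the combination was thus seen in FPM and not in deposited TPM. Deposited TPM divides H2bc4 by its span of 8710 bp against an exonic length of 1156 bp, so such sums give it less weight. In TPM recomputed with exonic length, H2bc4 was at 60.5 ± 0.999 in vehicle and 142 ± 13.6 with the combination (SD, n = 3). No sum was made on that scale. The butyrate sums in TPM were 105% for H1, 71.3% for H2A and 135% for H4, each with no overlap, and 90.5% for H3, which overlapped vehicle and had the opposite direction from FPM. As the H2B sum in FPM is mainly H2bc4 and the H2A sum mainly H2ac24, these describe single genes as much as families, and no test was made on a sum. Without H2ac24, the other 14 H2A genes held 146% of their vehicle FPM with butyrate and 148% with the combination, both with no overlap. In deposited TPM these 14 genes summed to 93.2% with butyrate, which overlapped vehicle, and to 78.8% with the combination, with no overlap. The lower H2A sum in FPM with butyrate was thus not shared by the sum of the other 14 genes.

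**Figure D4:**
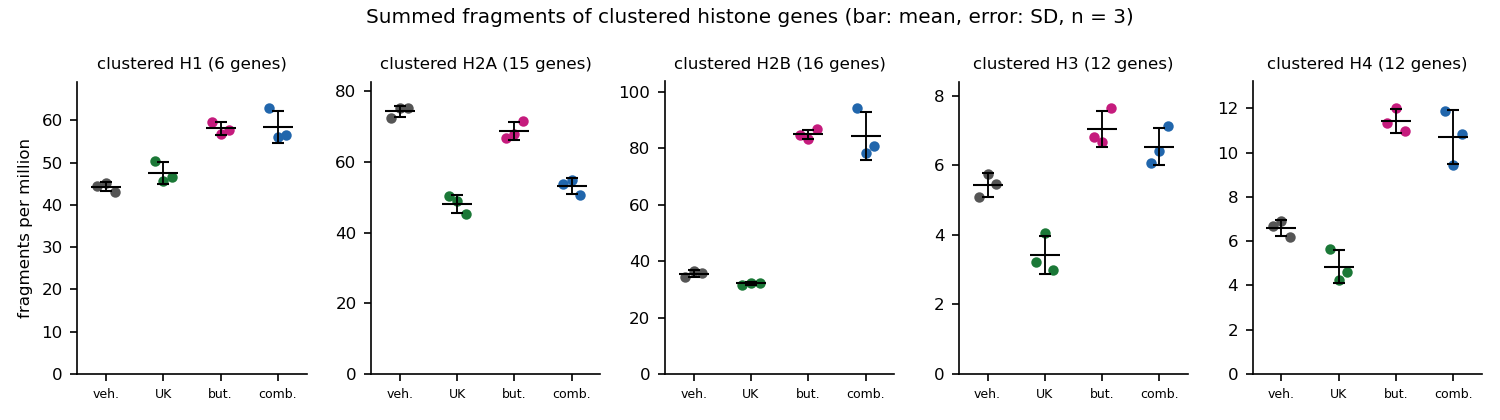
Summed FPM (fragments per 1000000; y axis, from 0) of the clustered H1, H2A, H2B, H3 and H4 genes in each sample of the vehicle (veh.), UK5099 (UK), butyrate (but.) and combination (comb.) groups, with the group mean and SD. All butyrate samples are above all vehicle samples for H1, H2B, H3 and H4, and below them for H2A. Without H2ac24, not drawn here, the H2A sum is above vehicle in all butyrate samples. In deposited TPM the H3 sum overlapped vehicle and had a lower mean, as did the H2A sum without H2ac24.

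The variants changed by less than the limit of 1 throughout, and 0 of 13 passed both limits in any comparison with vehicle in limma, at an unadjusted p under 0.05 or in voom, against 1.84%, 3.54% and 6.42% of all genes in limma with UK5099, butyrate and the combination. Of the 13 variants, 8 fell with UK5099 (61.5%), 8 with butyrate (61.5%) and, with both, 10 (76.9%), and 0 rose in limma in each, against 1 each at an unadjusted p under 0.05 and 1, 4 and 3 in voom (which called 14.7%, 20.6% and 22.3% of all genes higher), with median coefficients of -0.22, -0.19 and -0.42. On the median-of-ratios scale, 1 rose and 5 fell with UK5099, 4 rose and 3 fell with butyrate, and 2 rose and 3 fell with the combination, with medians of -0.07, 0.13 and 0.00. Over all genes, 13.5% rose and 13.7% fell with UK5099 on that scale, 18.5% and 20.3% with butyrate, and 21.7% and 22.5% with the combination. Of the genes averaging 1 TPM or more, 38.1%, 57.6% and 64.2% fell on the deposited scale with UK5099, butyrate and the combination. Of the 11 variants averaging 1 TPM or more, 8, 8 and 10 fell in the same order. Most genes of such levels thus also fell with butyrate and with the combination.

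Of the linker variants, H1f0 encodes H1.0, which is known to accumulate in resting and differentiated cells. Its levels were 894, 895 and 875 TPM in vehicle, 757, 772 and 755 TPM with UK5099, 828, 834 and 839 TPM with butyrate and 698, 696 and 691 TPM with the combination. The groups did not overlap on the deposited scale. The coefficients were -0.22 with UK5099, -0.09 with butyrate and, with both, -0.35 (SE 0.0135; adjusted p = 0.000247 for butyrate, limma), and on the median-of-ratios scale they were -0.07, 0.22 and 0.11, so that the sign with butyrate and the combination turned with the scale. An antisense gene overlaps H1f0, and whether counting used the strand is not stated.
H1f10, the gene of H1.10, was at 103, 104 and 108 TPM in vehicle, 74.5, 74.8 and 65.8 TPM with UK5099, 99.3, 96.9 and 104 TPM with butyrate and 74.5, 72.6 and 73.5 TPM with the combination. Samples with UK5099 lay below all samples without it. The UK5099 coefficient was -0.55 ± 0.05 (SE; adjusted p = 1.4e-05, limma), and -0.40 on the median-of-ratios scale, whereas the butyrate coefficient of -0.07 (adjusted p = 0.276) became 0.24.

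Of the H2A variants, H2az1 encodes H2A.Z, found around active promoters, and it fell on both scales in each treatment. It was at 398, 408 and 389 TPM in vehicle, 268, 286 and 283 TPM with UK5099, 240.0, 244 and 244 TPM with butyrate and 205, 216 and 212 TPM with the combination. The groups did not overlap. The coefficients of -0.51 ± 0.03, -0.71 ± 0.03 and -0.92 ± 0.03 (SE) became -0.36, -0.40 and -0.45 on the median-of-ratios scale.
H2az2, the other H2A.Z gene, was at 12.5 ± 0.312 TPM in vehicle, 10.5 ± 0.347 TPM for UK5099, 10.4 ± 0.194 TPM for butyrate and 8.61 ± 0.0894 TPM for the combination (SD, n = 3). Its butyrate coefficient was -0.24, and 0.05 on the median-of-ratios scale. On the scaled values the H2az1 coefficient with butyrate was -0.40, and the difference between the 2 genes was not tested.
H2ax encodes H2A.X, which is phosphorylated at DNA breaks, and is the variant whose transcript carries the stem-loop printed above. It was at 234, 249 and 239 TPM in vehicle, 175, 182 and 183 TPM with UK5099, 224, 219 and 224 TPM with butyrate and 181, 177 and 181 TPM with the combination. The UK5099 and combination samples lay below all vehicle and butyrate samples. The UK5099 coefficient was -0.42 ± 0.03 (SE; adjusted p = 1.19e-06, limma). The butyrate coefficient of -0.12 turned to 0.20 on the median-of-ratios scale, and its call on the deposited scale ended without butyrate replicate 2 (adjusted p = 0.0151, limma).
Macroh2a1 and Macroh2a2 encode macroH2A, a large variant found in silent chromatin. Macroh2a1 was at 15.0, 14.9 and 14.5 TPM in vehicle, 12.5, 12.9 and 12.9 TPM with UK5099, 11.4, 11.6 and 11.3 TPM with butyrate and 10.7, 10.7 and 10.7 TPM with the combination. Its coefficients of -0.20, -0.35 and -0.43 were -0.06, -0.05 and -0.00 on the median-of-ratios scale, close to the typical gene.
Macroh2a2 was at 3.07, 3.06 and 3.15 TPM in vehicle, 2.69, 2.75 and 2.61 TPM with UK5099, 1.94, 1.99 and 2.02 TPM with butyrate and 1.88, 1.91 and 1.96 TPM with the combination. All samples with butyrate lay below all samples without it, and the butyrate coefficient of -0.46 ± 0.02 (SE; adjusted p = 2.53e-08, limma) was -0.23 on the median-of-ratios scale.

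The 2 genes of histone H3.3, the replication-independent H3, encode the same protein and differed in their values. H3f3a was at 134, 133 and 135 TPM in vehicle, 136, 145 and 149 TPM with UK5099, 119, 121 and 116 TPM with butyrate and 119, 117 and 117 TPM with the combination. UK5099 lay above vehicle in every sample with a coefficient of 0.09 ± 0.03 (SE) that did not pass (adjusted p = 0.0331, limma), and 0.24 on the median-of-ratios scale, where it passed.
H3f3b was at 860.0, 859 and 847 TPM in vehicle, 599, 643 and 641 TPM with UK5099, 645, 647 and 642 TPM with butyrate and 496, 505 and 509.6 TPM with the combination. Every treated sample lay below every vehicle sample. The coefficients were -0.45 ± 0.03, -0.41 ± 0.03 and -0.76 ± 0.03 (SE), and -0.30, -0.09 and -0.30 on the median-of-ratios scale. The difference between the 2 genes was not tested. The butyrate and combination coefficients of H3f3a, at -0.17 and -0.18, turned to 0.14 and 0.28 on that scale.
H3f3c is annotated as a processed pseudogene, which can take reads from the H3.3 genes, and stood at 195 ± 12.1 TPM in vehicle and 162 ± 8.04 TPM with the combination (SD, n = 3). Its combination coefficient of -0.27 became 0.20 on the median-of-ratios scale, and the deposited call ended without combination replicate 1 or 2 or vehicle replicate 1 or 2 (adjusted p up to 0.0147, limma).
The processed pseudogene Macroh2a3, which lies inside Pvt1, had 4.77 ± 1.34 TPM in vehicle and no call in the 3 comparisons with vehicle. H3f4 and the antisense H3f3aos had means under 1 TPM.

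**Figure D5:**
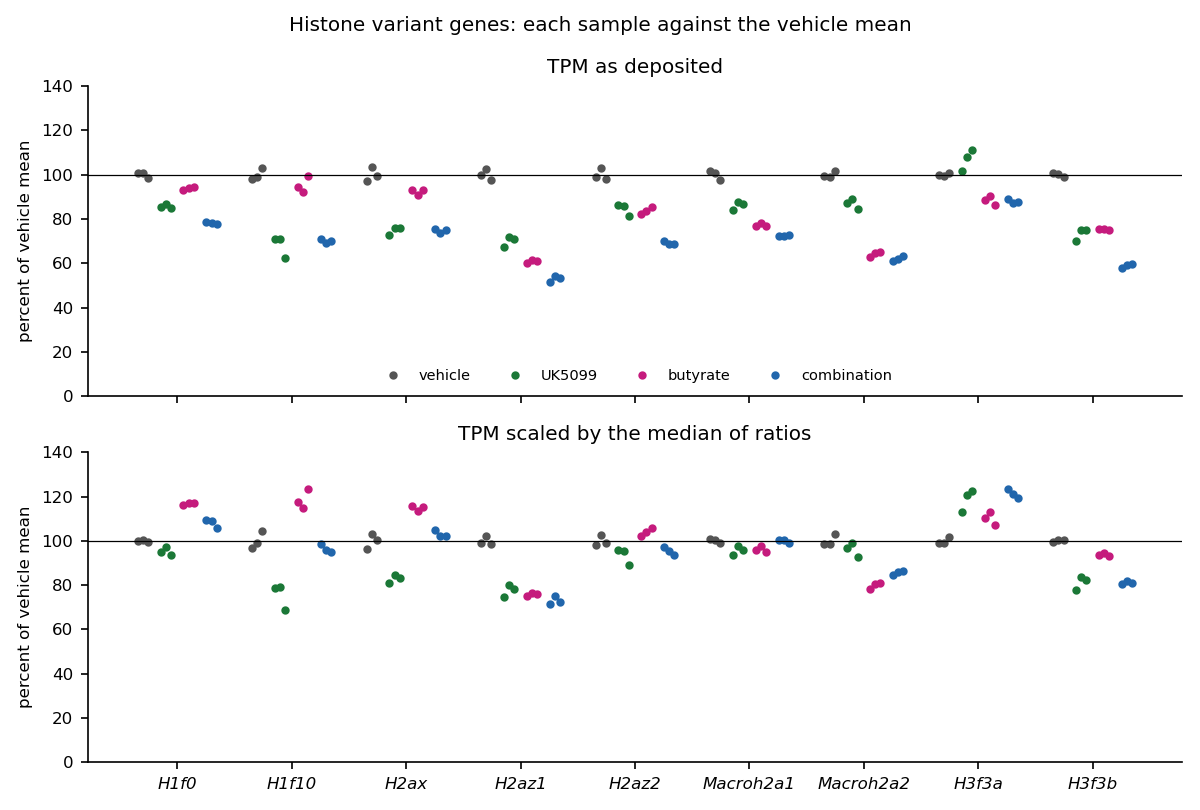
Level of 9 variant histone genes in each sample as a percent of the vehicle mean of that gene (y axis, from 0), in TPM as deposited (top) and on the median-of-ratios scale (bottom), with the 4 groups in colour. On the deposited scale most treated points lie below 100. On the scaled values H1f0, H1f10, H2ax, H2az2 and H3f3a lie above 100 in all butyrate samples. H2az1, Macroh2a2 and H3f3b stay below 100 in all treated samples on the scaled values.

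The interaction, which asks whether the combination departs from the sum of the single-drug coefficients, passed both limits for 0 of 74 members, against 1.01% of all genes in limma, with 1 member at an unadjusted p under 0.05 and a coefficient over 1, and 0 in voom. At an adjusted p under 0.01 alone 3 members were positive and 0 negative, against 7.01% and 6.38%. H2az1 had an interaction of 0.31 ± 0.04 (SE; adjusted p = 0.000719, limma), which is 0.31 on the median-of-ratios scale, so that its level with both drugs was higher than the sum of the single-drug coefficients gives. Those of Macroh2a2 and Macroh2a1 were 0.12 ± 0.03 and 0.11 ± 0.02, with adjusted p-values of 0.00888 and 0.00958 in limma, and each call ended in 11 of the 12 fits that left out 1 sample (all but the fit without UK5099 replicate 2 for Macroh2a2 and without vehicle replicate 3 for Macroh2a1; adjusted p up to 0.0241 and 0.0263). Among clustered genes 0 passed in limma and 7 had an unadjusted p under 0.05, and voom on the recovered fragments called 1, H2ac24, at 0.23.

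The genes that serve histone supply are given for context, from lists chosen with earlier results of these data known. Of genes averaging 1 TPM or more, 38.1%, 57.6% and 64.2% fell with UK5099, butyrate and the combination, and of all genes 24.7%, 35.9% and 40.8%, which is the background for the counts that follow. Of 15 genes of histone mRNA synthesis and processing, 1 rose and 12 fell with UK5099, 1 rose and 11 fell with butyrate and 12 fell with the combination, with median coefficients of -0.27, -0.57 and -0.67, or -0.13, -0.29 and -0.27 on the median-of-ratios scale, where 6, 9 and 9 fell and 1, 2 and 2 rose, against 13.7%, 20.3% and 22.5% of all genes that fell and 13.5%, 18.5% and 21.7% that rose. Npat encodes the coactivator of clustered histone transcription, and its mean of 6.27 ± 0.0796 TPM in vehicle (SD, n = 3) compared with 5.43 ± 0.427 TPM for UK5099, 3.64 ± 0.00656 TPM for butyrate and 3.15 ± 0.0689 TPM for the combination. The Npat butyrate coefficient was -0.65 ± 0.04 (SE; adjusted p = 4.01e-07, limma) and -0.38 on the median-of-ratios scale. Slbp, whose protein binds the stem-loop, averaged 24.4 ± 0.607 TPM in vehicle, 19.6 ± 0.723 TPM for UK5099, 24.4 ± 0.343 TPM for butyrate and 21.5 ± 0.672 with the combination. Its combination coefficient of -0.18 turned to 0.27 on the median-of-ratios scale. Srrt, which encodes ARS2, a partner of the nuclear cap-binding complex, passed both limits with the combination, at -1.13 ± 0.03 (SE; adjusted p = 2.26e-09, limma).
Of 31 histone chaperone and exchange genes, 1 rose and 28 fell with UK5099, 29 fell with butyrate and 31 with the combination. The median coefficients were -0.31, -0.52 and -0.74, or -0.18, -0.23 and -0.32 on the median-of-ratios scale, where 16, 21 and 23 fell and 3, 3 and 0 rose in limma (voom called 2, 3 and 1 higher). Daxx, which encodes an H3.3 chaperone, and Tonsl, which encodes a reader of newly made histone H4, passed both limits with the combination, at -1.10 and -1.13.
Of 29 S-phase genes, 1 rose and 27 fell with UK5099, 27 fell with butyrate and 29 with the combination. The medians were -0.40, -0.49 and -0.81, or -0.28, -0.21 and -0.37 on the median-of-ratios scale, where 22, 17 and 22 fell and 1, 1 and 0 rose in limma (voom called 1, 2 and 0 higher). The replicative helicase genes Mcm2, Mcm5, Mcm6 and Mcm7, the cyclin gene Ccna2, Tyms, Pole and Fen1 were past both limits with the combination, with coefficients down to -1.19, that of Mcm2. Cenpa, the centromeric H3 variant, fell with the combination, at -0.37 ± 0.04 (SE; adjusted p = 3.38e-05, limma), and its scaled coefficient was 0.09. The part of these lists in the histone results was not tested.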

How the data were processed

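RNA was sequenced from 12 organoid samples. Per the labels, libraries were made with a stranded kit after depletion of ribosomal RNA, and reads were processed with STAR 2.7.9a and Partek on GRCm39; the study's methods name another kit, STAR with RSEM, and GRCm38. The authors deposited TPM per gene. These values behaved as fragments divided by genomic span that sum to 1000000 in each sample, and fragments were recovered from their steps (a value is called whole within 0.02 of a fragment).

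The study's 2-factor linear model was kept: limma 3.58.1 in R 4.3.3 on log2(TPM + 1), with a pseudocount of 1 chosen here, terms for UK5099, butyrate and their interaction, all 24674 genes and Benjamini-Hochberg adjustment. Fits were tested on simulated data. Exonic lengths and transcripts came from GENCODE (GRCm38), promoters from RefSeq (GRCm38.p6), matched by symbol or gene ID. Members, lists and alternatives were chosen with earlier results of these data known. Named genes were variants with a mean of at least 1 TPM, clustered genes of at least 1 TPM with the 5 highest and 5 lowest coefficients past an adjusted p of 0.01, the 3 highest of each family, listed genes past both limits, Npat and Slbp; others are marked. The exonic length split and sums without H2ac24 were chosen after seeing the data. Alternatives covered scaling, pseudocount, filter, sample set, prior, voom on recovered fragments, a replicate block and each sample left out. Python 3.11.15 was used with scipy 1.17.1, numpy 2.4.6, matplotlib 3.10.9 and pandas 2.3.3.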

Additional observations from a re-analysis of the deposited data

Results flagged for a closer look

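The effect of butyrate differed with and without UK5099, by the interaction term of limma at an adjusted p under 0.01, for 3 histone genes. These were 4.05% of the 74 members, all positive, against 7.01% positive and 6.38% negative over all genes. H2az1 had an interaction of 0.31 (SE 0.0423, adjusted p = 0.000719). Its butyrate coefficient was -0.71 without UK5099 and -0.40 with it, lower in 3 of 3 samples in both cases, and it kept its call under all 22 alternatives (adjusted p between 1.59e-06 and 0.00335). Macroh2a2 had an interaction of 0.12 (SE 0.0256, adjusted p = 0.00888) and Macroh2a1 of 0.11 (SE 0.0248, adjusted p = 0.00958). The calls of these 2 genes ended under 21 and 19 of the 22 alternatives, with adjusted p-values between 0.00773 and 0.145 and between 0.00518 and 0.211. The groups hold 3 samples each, too few for a test of single samples.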

How the results depend on the processing

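Counts of histone genes past both limits moved by over 1.5 times under some settings. With UK5099 the count of 2 became 1 under scaling by the median of ratios, quantile normalisation and pseudocounts of 0.1 and 0.01, 0 in a fit of the 6 samples alone, and 14 at an adjusted p under 0.01 alone. With butyrate the count of 4 became 7 under quantile normalisation, 10 with voom on recovered fragments and 18 at an adjusted p under 0.01 alone. With the combination the count of 9 became 16 with voom and 23 at an adjusted p under 0.01 alone. The interaction count of 0 became 3 at an adjusted p under 0.01 alone. With 1 sample left out, counts lay between 1 and 4 for UK5099, 3 and 5 for butyrate, 6 and 10 for the combination and 0 and 0 for the interaction. The UK5099 count was 4 without vehicle replicate 1, 3 without UK5099 replicate 3, 2 without vehicle replicate 2 and 1 without any one of the other 9 samples, and the combination count was 6 without combination replicate 1.

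The summed TPM of clustered genes as a percent of vehicle also moved with the scale. With UK5099 the value of 66.8% was 74.1% after the median of ratios, 81.9% in FPM and 80.9% without H2ac24. With butyrate 83.7% became 104% after the median of ratios, 91.4% over nuclear protein-coding genes, 138% in FPM, 110% without H2ac24 and 110% without H2ac24 and H1f2. With the combination 65.2% became 89.9%, 68.5%, 128%, 96.5% and 91.1% in the same order. With 1 sample left out the percents lay between 65.2 and 67.9, 82.2 and 85.2, and 64.0 and 66.3.

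Coefficients that changed sign all went from negative to positive, and the cause was not tested. Scaling by the median of ratios gave 0.0538 for H2az2, 0.20 for H2ax, 0.14 for H3f3a and 0.22 for H1f0 with butyrate, and 0.0442 for H2ax, 0.28 for H3f3a, 0.20 for H3f3c, 0.11 for H1f0 and 0.27 for Slbp with the combination. Quantile normalisation gave 0.0117 for Macroh2a1, 0.11 for H2az2, 0.0581 for H2ax, 0.0988 for H3f3a and 0.00643 for H1f0 with butyrate, and 0.0265 for Macroh2a1, 0.11 for H3f3a, 0.00815 for H3f3c and 0.30 for Slbp with the combination. Voom gave 0.0698 for H2az2, 0.21 for H2ax, 0.15 for H3f3a and 0.24 for H1f0 with butyrate, and 0.0046 for Macroh2a1, 0.0491 for H2ax, 0.28 for H3f3a, 0.21 for H3f3c, 0.12 for H1f0 and 0.29 for Slbp with the combination. With butyrate, exonic length gave 0.00144 for H2ax and 0.0267 for H1f0, and rescaling over nuclear protein-coding genes 0.0096 for H2ax and 0.0348 for H1f0. Of 94 gene results, 61 kept an adjusted p under 0.01 under every alternative.

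The labels number replicates 1 to 3 in each group. Samples with the same number did not deviate together, with correlations between -0.11 and 0.03 over 18 pairs against -0.06 to 0.07 for different numbers. No pairing by number was seen, though with 3 samples in each group a weak one could go unseen. With a replicate block the counts were 2 for UK5099, 3 for butyrate, 8 for the combination and 0 for the interaction. A split of clustered genes at 700 or 1500 bp, added after seeing the data, gave 6 and 3 longer genes that rose with butyrate, against 5 at 1000 bp. The sums without H2ac24 were also chosen after seeing the data. Few fragments limit most clustered genes, since 37 of 61 had fewer than 20 per sample.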
